A study of Mus musculus with 6 samples.

Results

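The PI3K, AKT, mTOR and FOXO pathway was described through 41 named genes in RNA sequencing of mouse CD4+ T cells, lymphocytes with helper and regulatory roles. The genes were chosen by name, and all 41 were among the 21362 genes in both deposited tables. The study set regulatory T cells given sorafenib, an oral inhibitor of several protein kinases, beside cells without it. There were 6 libraries, labelled as CD4+ T cells with a running number and with no treatment, dose, time, strain or animal. The libraries therefore form no groups here, no effect of sorafenib was estimated, and no test between replicates was made. Libraries are called 1 to 6 after their titles, and series of values follow that order. Nothing states whether the libraries came from separate animals or cultures.

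In this pathway, receptors on the T cell surface activate PI3K, a lipid kinase that makes a membrane signal to which the kinases PDK1 and AKT are drawn. AKT phosphorylates FOXO transcription factors, which then leave the nucleus, and restrains the TSC complex, so that the GTPase RHEB can activate mTOR complex 1. That complex promotes protein synthesis, and amino acids admit it to the lysosome through Rag GTPases. In T cells, FOXO factors are known to maintain homing receptors and quiescence, and regulatory T cells are known to be sensitive to the strength of the pathway. Transcript levels say nothing of the phosphorylation through which most of these proteins are controlled.

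Promoter windows of 300 bases, 250 before and 50 after an annotated start, were read from RefSeq on GRCm38.p6 for 38 of the 41 genes. The letters TGTTTAC, a core recognised by FOXO factors, were found on either strand in windows of 4 genes, namely Pik3cg, Akt1, Sesn1 and Stk11. That is 10.5% of the matched genes, against 4.05% of the 27025 genes in the table. The letters CACGTG, the E-box read by MYC and TFEB family factors, were found for Rheb, Eif4e, Rragc, Lamtor1, Fnip1 and Sgk1. That is 15.8% of the matched genes, against 8.09% of all genes. A gene counted if any of its windows matched, and genes with several windows, such as Sgk1, had more occasions to match. Both sets are too small to be set apart from the shares over all genes. A match describes letters in the window and no binding was measured here. The windows below belong to Rictor and Inpp4b, 2 of the 3 genes with the widest ranges, and to Rheb and Sesn1, which hold an E-box and a FOXO core. Capitals mark the motif, and all are written 5′ to 3′ on the strand of the gene. The Rictor window is chr15:6708131-6708430 on the plus strand, and the Inpp4b window is chr8:81342312-81342611 on the plus strand. The Rheb window is chr5:24842312-24842611 on the minus strand, with its E-box starting at -96 relative to the start. The Sesn1 window is chr10:41810324-41810623 on the plus strand, with the FOXO core starting 22 bases after the start.
Rictor: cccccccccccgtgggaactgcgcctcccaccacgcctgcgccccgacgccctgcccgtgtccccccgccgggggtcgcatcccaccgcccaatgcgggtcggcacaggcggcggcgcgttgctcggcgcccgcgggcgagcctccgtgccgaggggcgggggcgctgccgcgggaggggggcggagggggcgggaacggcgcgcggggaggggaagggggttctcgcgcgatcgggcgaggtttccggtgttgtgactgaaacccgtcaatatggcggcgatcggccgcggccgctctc
Inpp4b: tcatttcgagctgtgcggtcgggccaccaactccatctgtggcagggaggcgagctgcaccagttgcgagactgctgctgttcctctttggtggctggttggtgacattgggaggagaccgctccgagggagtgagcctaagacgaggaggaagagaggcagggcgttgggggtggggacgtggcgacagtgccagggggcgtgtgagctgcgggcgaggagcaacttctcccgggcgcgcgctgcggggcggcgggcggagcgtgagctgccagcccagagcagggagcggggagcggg
Rheb: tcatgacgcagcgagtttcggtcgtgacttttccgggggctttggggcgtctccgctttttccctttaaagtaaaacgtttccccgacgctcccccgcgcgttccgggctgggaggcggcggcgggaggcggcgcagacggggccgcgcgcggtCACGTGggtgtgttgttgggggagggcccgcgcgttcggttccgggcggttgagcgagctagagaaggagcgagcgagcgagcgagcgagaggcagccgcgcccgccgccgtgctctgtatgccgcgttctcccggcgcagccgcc
Sesn1: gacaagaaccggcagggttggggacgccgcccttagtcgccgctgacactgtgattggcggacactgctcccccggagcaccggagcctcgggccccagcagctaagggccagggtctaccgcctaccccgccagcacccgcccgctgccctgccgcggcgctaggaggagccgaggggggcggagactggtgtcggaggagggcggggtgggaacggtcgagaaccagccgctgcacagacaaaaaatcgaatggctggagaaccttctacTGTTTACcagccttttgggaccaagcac

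Total counts over genes ran from 32435799 to 36316162 per library. Levels between libraries are given as CPM (counts-per-million of a library total scaled for composition by edgeR's TMM method), and levels between genes as the deposited FPKM, which also divides by gene length. The range of a gene sets its highest library over its lowest, and 95% intervals are exact and cover counting error only. The cells carried T cell transcripts, with 8 marker genes summing to between 2298 and 2805 CPM per library, while 4 NK cell markers summed to at most 0.619 CPM and 5 erythroid markers to at most 0.287 CPM. Of the 5 B cell markers, the sum ran from 4.86 to 8.17 CPM, and of the 6 myeloid markers from 9.28 to 12.8 CPM, most of it Cd68, with none of these markers at 0 reads in every library. Cd8b1 stood at 8.15 to 9.57 CPM, against 0.231 to 0.661 CPM for Cd8a. In the order of the libraries, 6 cell cycle genes summed to 380.0, 402, 367, 770.4, 793 and 921 CPM, and 5 regulatory T cell genes to 4201, 4140, 4095, 2683, 2724 and 2943 CPM. Most of the second sum was Il2ra and Ctla4, while Foxp3, the factor that defines regulatory T cells, stood at 7.37, 7.66, 7.86, 11.9, 13.4 and 11.2 CPM with the opposite order, and Ikzf2 ranged 1.13-fold. Mitochondrially encoded genes summed to between 19820 and 23460 CPM, and libraries 4, 5 and 6 were the higher ones. The part of these differences in the results below was not tested, and fewer cells of a type and less RNA per cell cannot be told apart.

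The pathway was expressed almost throughout, and most of its transcripts ranged less than 1.5-fold. Of the 41 genes, 40 averaged 1 CPM or more over the libraries, and the exception was Deptor, an inhibitor that binds mTOR. Deptor had 17, 12, 4, 12, 9 and 20 reads, so its level rests on few counts in every library. Of the 40 measured genes, 3 ranged 1.5-fold or more, which is 7.5%, and 0 reached 2-fold. The same held for 27.6% (1.5-fold) and 10.5% (2-fold) of all 11516 genes averaging 1 CPM or more. With plain total counts 1 pathway gene, Inpp4b, reached 1.5-fold, against 30.8% of all genes. The deposited FPKM divide by the same totals, and with them the same gene did, against 28.4%. Low genes carry much of that background, and above an average of 10 CPM the shares were 3 of 39 pathway genes and 13.5% of 8371 genes. These 39 genes are too few to set the pathway apart from that background. The median range was 1.22-fold over the pathway and 1.29-fold over all measured genes, low ones included. The 95% intervals of the highest and lowest library were separate for 36 of the 40 genes, or 90.0%, against 85.0% of all genes, so counting error was smaller than most of these differences in both sets. Because the extremes are picked out of 6 libraries, separate intervals are more frequent than they would be for a fixed pair.

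**Figure D1:**
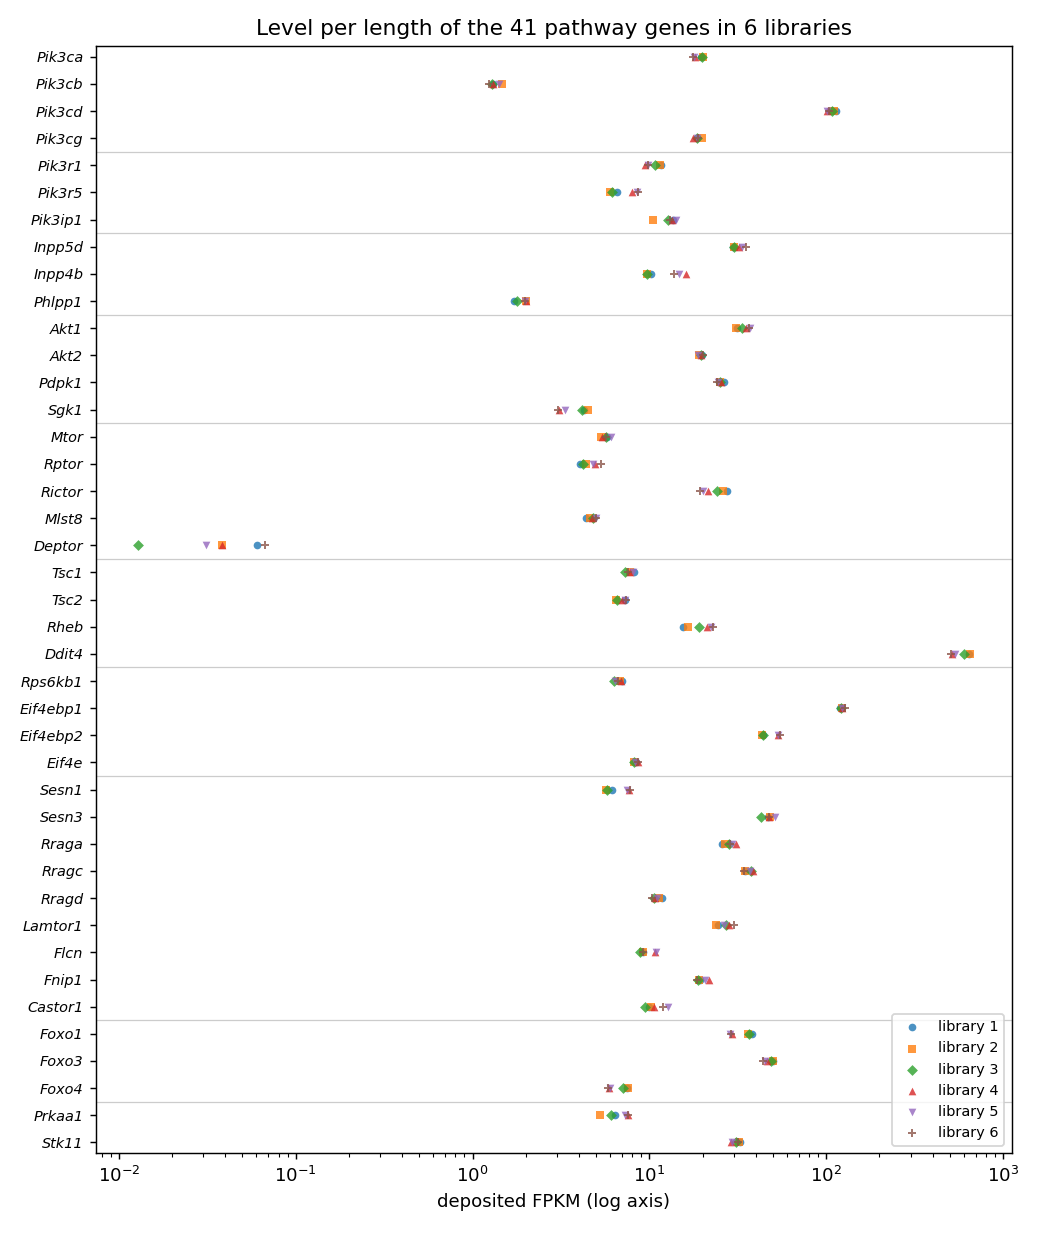
Deposited FPKM (log axis) of each of the 41 genes, 1 point per library, with grey lines between functional classes. Ddit4 lies far to the right with a median of 569 FPKM, Deptor far to the left with 0.0382 FPKM, and the 6 points of most genes nearly coincide.

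Levels per length differed far more between genes than between libraries. Ddit4, an inhibitor of mTOR complex 1 that acts through TSC, led with a median of 569 FPKM. Eif4ebp1, a repressor of cap-dependent translation that mTOR inactivates, followed with 123 FPKM, and Pik3cd, the leukocyte PI3K catalytic subunit p110 delta, with 106 FPKM. Of the 41 genes, 25 had a median of at least 10 FPKM. In the order of medians, 11 of 40 neighbouring pairs did not overlap over the libraries and 29 did. Ddit4, Eif4ebp1 and Pik3cd each stood clear of the next gene, and Phlpp1, Pik3cb and Deptor, the 3 lowest, each stood clear of the gene above. Foxo3, Sesn3 and Eif4ebp2, with medians of 47.6, 47.3 and 48.5 FPKM, overlapped.

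The catalytic subunits of class I PI3K were dominated by p110 delta. Pik3cd made up between 72.6% and 74.2% of the summed FPKM of the 4 subunit genes. Pik3ca, the widely expressed p110 alpha, had 12.5% to 13.5%, Pik3cg, the G protein-coupled p110 gamma, 12.1% to 13.4%, and Pik3cb, p110 beta, 0.848% to 1.02%. Pik3cd stood at 743, 723, 695, 602, 603 and 630.1 CPM, a range of 1.23-fold with a 95% interval of 733 to 753 CPM for library 1 against 594 to 610.0 CPM for library 4. Libraries 1, 2 and 3 were each above libraries 4, 5 and 6. Pik3ca had 144, 147, 144, 122, 120.0 and 119.9 CPM, with the same libraries higher. Pik3cg had 154, 163, 153, 134, 142 and 144 CPM, which kept that order except with plain total counts. Within a library the ratio of Pik3cd to Pik3ca per length was 5.41 to 5.88 and that of Pik3cd to Pik3cg 5.42 to 6.12. The isoform mixture was thus nearly constant, although the intervals of the extremes were separate for both ratios. Pik3cb ranged from 6.27 to 8.07 CPM, and its intervals overlapped.

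The regulatory genes of PI3K differed in order. Pik3r1, which encodes the p85 alpha adaptor and its shorter forms, stood at 139, 137, 128, 104, 107 and 109 CPM. Pik3r5, which encodes the p101 adaptor of p110 gamma, stood at 30.3, 27.7, 28.2, 33.9, 36.2 and 36.9 CPM. Libraries 1, 2 and 3 were the higher ones for Pik3r1 and the lower ones for Pik3r5, with ranges of 1.33-fold each. Pik3ip1, a transmembrane protein that restrains PI3K in T cells, had 31.8, 24.6, 29.5, 28.7, 30.3 and 28.2 CPM, and library 2 was the low one. Its range of 1.29-fold became 1.14-fold without library 2. The ratio of Pik3ip1 to Pik3r1 per length, which does not depend on library scaling, was 0.917 in library 2 and 1.44 in library 5. In shares of the pair, Pik3ip1 had 47.9% (46.0% to 49.7%) in library 2 and 59.1% (57.4% to 60.7%) in library 5.

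Phosphatases that oppose the pathway were present at unequal levels. Inpp5d, the SHIP1 phosphatase that removes the 5-phosphate from the PI3K product, was the most abundant with a median of 31.2 FPKM. It stood at 161, 162, 160.5, 159.6, 166 and 177 CPM, and library 6 was above the rest. Inpp4b, a phosphatase that acts on the lipid formed by SHIP1, stood at 183, 173, 173, 266, 242 and 230.1 CPM. Libraries 4, 5 and 6 were well above libraries 1, 2 and 3, with a 95% interval of 261 to 271 CPM for library 4 against 169 to 178 CPM for library 2. Its range was 1.54-fold, and 1.40-fold without library 4. Phlpp1, which dephosphorylates AKT, ranged from 10.9 to 12.8 CPM, and its intervals overlapped.

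**Figure D2:**
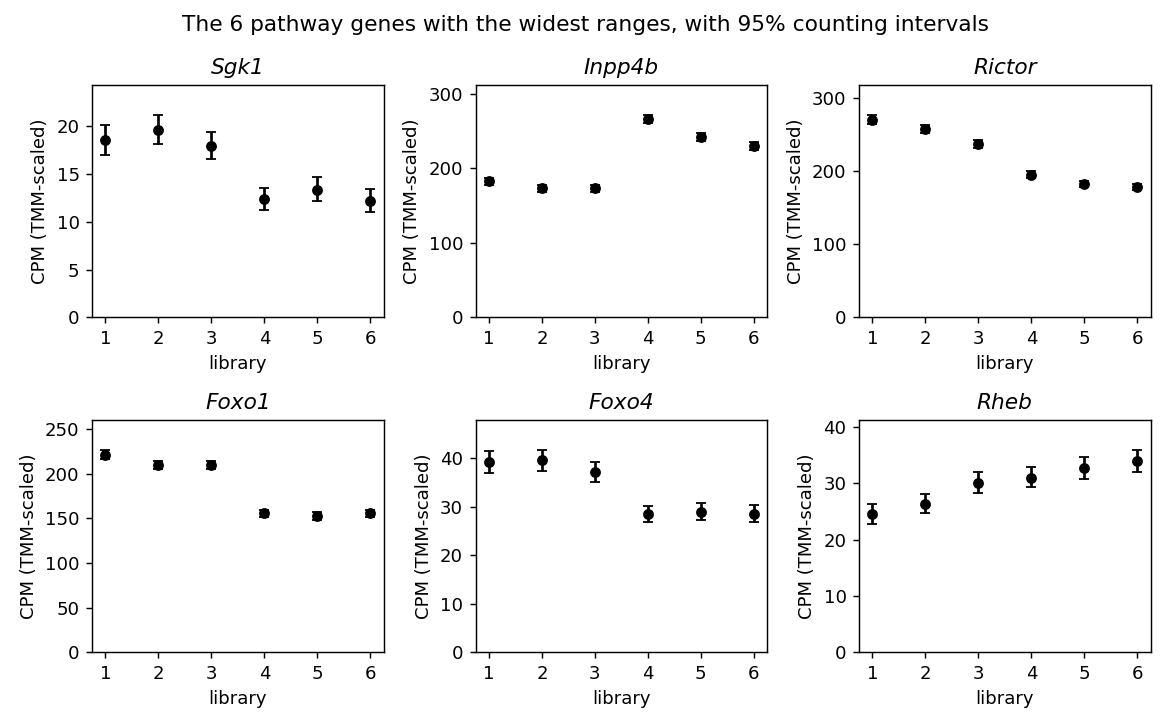
CPM in libraries 1 to 6 for the 6 genes with the widest ranges among the 40 measured, with bars for exact 95% counting intervals and axes from 0. Sgk1, Rictor, Foxo1 and Foxo4 are higher in libraries 1, 2 and 3, and Inpp4b and Rheb are lower there.

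Among the kinases downstream of PI3K, Sgk1 had the widest range of all measured pathway genes with TMM scaling. Inpp4b had it with plain total counts, with the deposited FPKM, which divide by the same totals, and without library 2. Sgk1 is an AKT-related kinase activated by mTOR complex 2 and PDK1 and known to phosphorylate FOXO factors. It stood at 18.5, 19.6, 17.9, 12.3, 13.3 and 12.2 CPM. Libraries 1, 2 and 3 were each above the other libraries, with a 95% interval of 18.1 to 21.1 CPM for library 2 against 11.1 to 13.4 CPM for library 6. The range was 1.61-fold, and 1.48-fold with the deposited FPKM. Akt1 and Akt2, the 2 AKT isoforms described here, varied little. Akt1 stood at 97.9, 97.3, 104, 101, 107 and 106 CPM, and Akt2 at 147, 143, 145, 134, 129 and 139.8 CPM. Per length Akt1 was the more abundant, with 61.3% (60.2% to 62.4%) of the pair in library 1 and 66.3% (65.3% to 67.2%) in library 5. By reads it was the less abundant, with 39.96% to 45.2% of the pair. The implied lengths are 3006 bases for Akt1 and 7146 bases for Akt2. Pdpk1, which encodes PDK1, ranged from 207 to 243 CPM.

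Of the 11 pairs of genes compared, the mTOR complexes held the one whose ratio differed most between libraries. Rictor, the defining subunit of mTOR complex 2, stood at 271, 258, 237, 196, 183 and 178 CPM. Libraries 1, 2 and 3 were each above libraries 4, 5 and 6, with a 95% interval of 265 to 277 CPM for library 1 against 174 to 183 CPM for library 6. The range was 1.52-fold, 1.47-fold without library 1, 1.48-fold without library 6 and 1.41-fold with the deposited FPKM. Rptor, which encodes raptor, the defining subunit of complex 1, had 35.0, 37.6, 36.0, 39.0, 37.8 and 42.5 CPM, and library 6 was the high one. The ratio of Rictor to Rptor per length was 6.72, 5.96, 5.72, 4.35, 4.20 and 3.64, and ranged 1.85-fold. Rictor made up 87.1% (86.3% to 87.8%) of the pair in library 1 and 78.5% (77.5% to 79.4%) in library 6. These shares rest on 2 genes within a library and do not depend on the scaling between libraries. Mtor, the kinase of both complexes, ranged from 44.7 to 51.7 CPM, and Mlst8, a subunit of both, from 18.4 to 20.1 CPM with overlapping intervals. Median levels per length were 5.70 FPKM for Mtor, 4.77 FPKM for Mlst8, 4.58 FPKM for Rptor and 22.8 FPKM for Rictor.

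**Figure D3:**
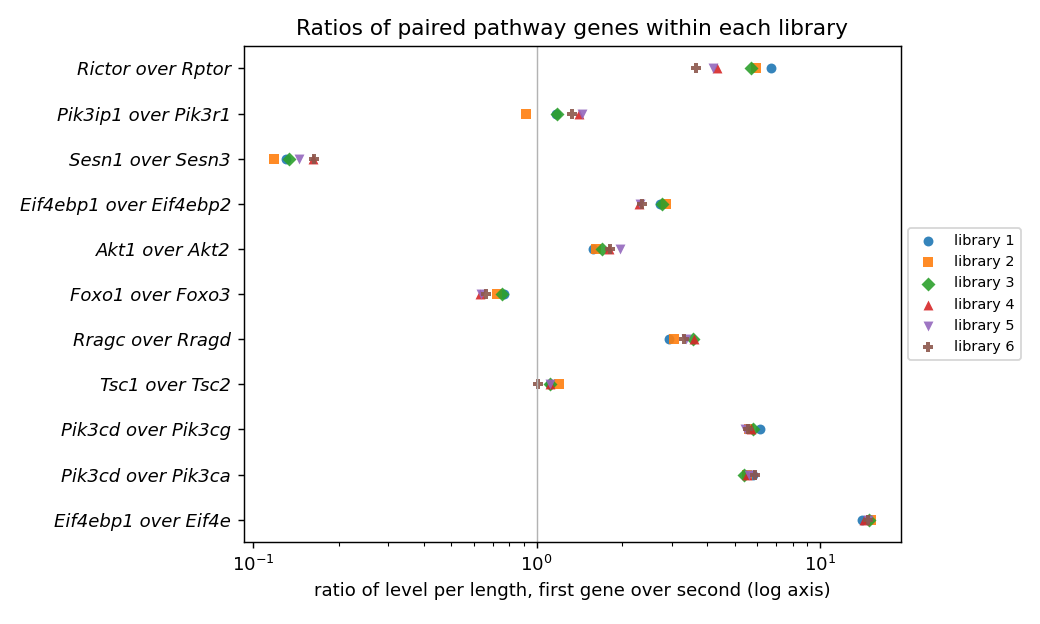
Ratio of level per length between the genes of 11 pairs (log axis), 1 point per library, with the widest range at the top and a grey line at 1. Rictor over Rptor spreads from 3.64 to 6.72, and Eif4ebp1 over Eif4e stays between 14.1 and 15.1.

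The switch between AKT and mTOR complex 1 included genes of opposite order. Tsc1 and Tsc2, subunits of the complex that turns RHEB off, ranged from 60.9 to 71.1 CPM and from 43.0 to 48.95 CPM. Tsc1 stood at 71.1, 67.7, 63.4, 62.3, 64.7 and 60.9 CPM, and Tsc2 at 48.95, 43.4, 43.7, 43.0, 44.7 and 46.2 CPM, each highest in library 1. Per length Tsc1 held between 50.4% and 54.6% of the pair. Rheb, the GTPase that activates mTOR complex 1, stood at 24.5, 26.4, 30.03, 31.0, 32.7 and 33.9 CPM. Libraries 4, 5 and 6 were above the other libraries, although library 3 was within 1 CPM of library 4, and the interval of library 6 (32.02 to 35.9 CPM) lay above that of library 1 (22.8 to 26.3 CPM). Rheb ranged 1.39-fold, and 1.27-fold without library 1. Ddit4, induced by hypoxia and stress and acting against RHEB, stood at 1125, 1141, 1054, 831, 860 and 830.0 CPM, with libraries 1, 2 and 3 above the rest and a range of 1.38-fold.

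Genes at the output of mTOR complex 1 had a median range of 1.14-fold. Eif4ebp1 stood at 121.7, 126, 122.8, 116, 115 and 121.5 CPM, a range of 1.09-fold with TMM scaling. That was the smallest of the 40, but with DESeq2 size factors Rraga, Akt1, Mlst8 and Inpp5d ranged less, and with plain total counts Eif4e and Akt2 did. Its paralogue Eif4ebp2 stood at 81.6, 80.2, 81.0, 91.8, 90.9 and 94.3 CPM, with libraries 4, 5 and 6 above the rest. Eif4ebp1 accordingly made up 74.1% (73.2% to 75.0%) of the pair per length in library 2 and 69.7% (68.7% to 70.6%) in library 4. Eif4e, the cap-binding protein that both repress, ranged from 81.5 to 89.95 CPM. The ratio of Eif4ebp1 to Eif4e per length lay between 14.1 and 15.1, and of the 11 pairs it was the exception whose extreme intervals overlapped. By reads Eif4ebp1 held 57.5% to 59.2% of that pair. The 11 pairs were picked for this description, and no share over other gene pairs was computed. Of all single measured genes, 85.0% had separate intervals. Rps6kb1, the S6 kinase, ranged from 62.4 to 74.3 CPM.

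Of 9 nutrient sensor genes at the lysosome, 0 ranged 1.5-fold, against 13.5% of all genes averaging 10 CPM or more, and 9 genes are too few to set this apart from that background. Sesn1 and Sesn3 encode sestrins, which restrain mTOR complex 1 when cells are stressed. Sesn1 stood at 21.5, 19.7, 19.8, 24.6, 23.9 and 25.1 CPM, with libraries 4, 5 and 6 above the rest and a range of 1.27-fold. Sesn3 was far more abundant per length, with a median of 47.3 FPKM against 6.82 FPKM for Sesn1, and stood at 105.9, 108, 96.0, 97.7, 106 and 98.9 CPM in no such order. Sesn1 made up 10.6% (9.80% to 11.4%) of the pair in library 2 and 14.1% (13.2% to 14.98%) in library 6. Of the Rag GTPase genes, Rragc stood at 94.2, 94.4, 102, 95.9, 92.3 and 86.0 CPM, and Rragd at 64.0, 61.8, 56.9, 53.6, 55.0 and 51.9 CPM. Rragc made up 74.6% (73.5% to 75.7%) of this pair per length in library 1 and 78.2% (77.2% to 79.1%) in library 4. Rraga ranged from 43.2 to 47.6 CPM with overlapping intervals. Lamtor1, an anchor of the Rag proteins on the lysosome, ranged from 29.5 to 34.4 CPM. Flcn, a Rag regulator, ranged from 80.1 to 93.02 CPM, and its partner Fnip1 from 130.5 to 152 CPM, both lowest in library 6. Castor1, an arginine sensor, ranged from 23.8 to 29.5 CPM.

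The energy sensor AMPK was represented by its catalytic gene Prkaa1 and by Stk11, which encodes the activating kinase LKB1. Prkaa1 stood at 36.2, 29.95, 34.3, 39.5, 37.9 and 40.04 CPM, with libraries 4, 5 and 6 above the rest, a range of 1.34-fold and 1.16-fold without library 2. Stk11 stood at 110.3, 109.5, 104, 90.4, 90.9 and 99.6 CPM, with the opposite order, which became mixed with plain total counts. Per length Stk11 was the more abundant, with medians of 31.2 FPKM for Stk11 and 6.81 FPKM for Prkaa1.

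All 3 FOXO genes were higher in libraries 1, 2 and 3 than in libraries 4, 5 and 6. When libraries were ordered by level, the widest gap lay just below libraries 1, 2 and 3 for each FOXO gene. With TMM the same held for 18.7% of all 11516 measured genes, and 3 genes are too few to be set apart from that share. Foxo1, the factor best known for homing and quiescence in T cells, stood at 222, 210.0, 210.0, 156, 153 and 156 CPM, with a 95% interval of 216 to 227 CPM for library 1 against 149 to 157 CPM for library 5. Foxo3, the most abundant per length with a median of 47.6 FPKM, stood at 353, 353, 341, 302, 295 and 288 CPM. Foxo4, with a median of 6.57 FPKM, stood at 39.2, 39.6, 37.2, 28.5, 29.03 and 28.6 CPM. The ranges were 1.45-fold for Foxo1, 1.23-fold for Foxo3 and 1.39-fold for Foxo4, and the order of libraries was kept with each of the 3 scalings tried. Foxo1 made up 43.4% (42.7% to 44.2%) of the pair with Foxo3 in library 1 and 38.7% (37.9% to 39.4%) in library 4.

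**Figure D4:**
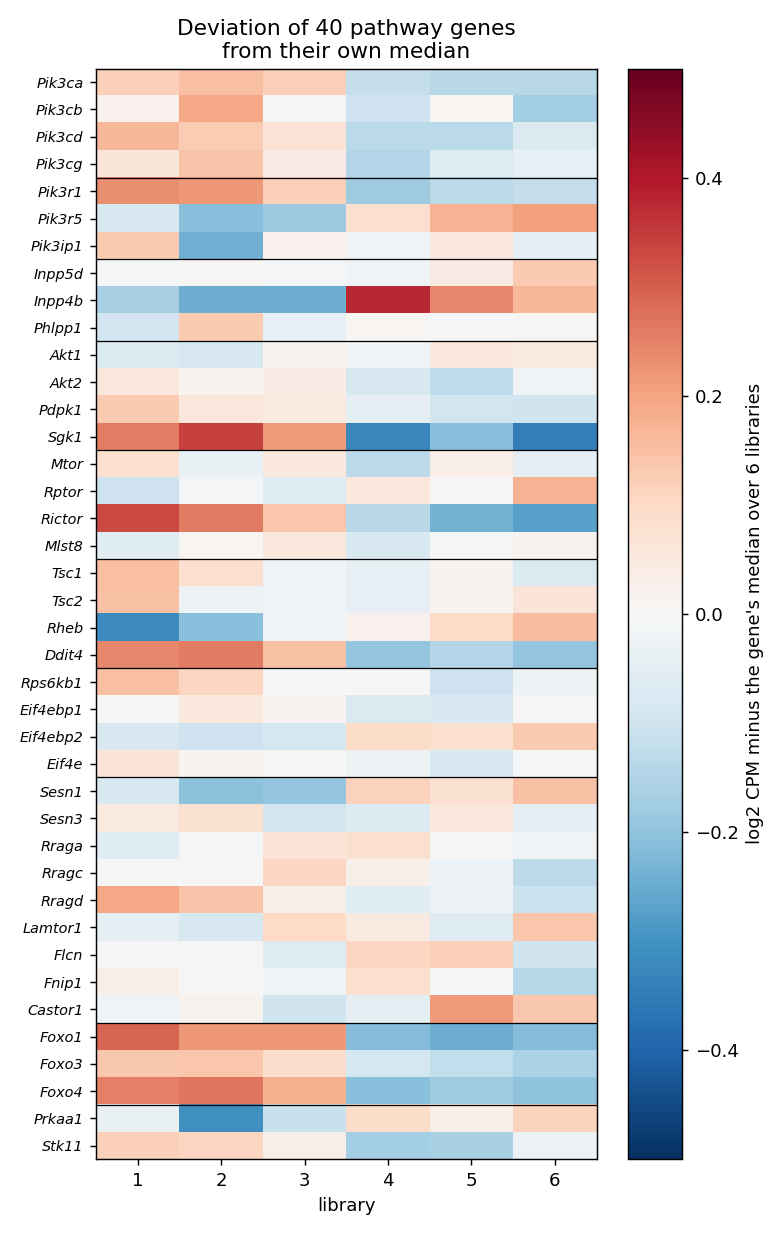
Log2 CPM of the 40 measured genes minus each gene's median over the 6 libraries, in functional classes separated by black lines. Red is above and blue below the median, and Sgk1, Rictor, Ddit4 and the 3 Foxo genes are red in libraries 1, 2 and 3, where Inpp4b and Rheb are pale to blue.

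Genes known to be regulated by FOXO factors in T cells or other cells varied more than the pathway itself and in both orders. Of 15 measured genes of that list, 7 ranged 1.5-fold or more, which is 46.7%, against 27.6% of all measured genes, and the median range was 1.497-fold. Each of the 15 averaged above 10 CPM, and 13.5% of all genes at that level ranged 1.5-fold or more. The genes are few and the list was chosen with earlier results of these data known, so the share is a description only. Klf2, which activates homing genes, stood at 11.9, 14.4, 13.4, 21.8, 22.02 and 19.7 CPM, and its known target S1pr1, the receptor for exit from lymph nodes, at 29.8, 25.5, 24.2, 37.2, 33.0 and 36.4 CPM. Tcf7, which encodes the quiescence factor TCF1, stood at 101.8, 101.2, 102.7, 179.5, 179.7 and 172 CPM. These 3 genes were lower in libraries 1, 2 and 3, where the Foxo genes were higher. The other 4 were higher there. Ccng2, an atypical cyclin of quiescent cells, stood at 437, 414, 398, 242, 239 and 242 CPM, and Fbxo32, a ubiquitin ligase subunit of muscle wasting, at 17.3, 14.9, 17.8, 11.1, 9.20 and 8.38 CPM. Bcl2l11, the death gene Bim, ranged 1.70-fold and Il7r 1.60-fold, both in that order. Ccr7, the lymph node chemokine receptor and the most abundant of the list with 164 FPKM, stood at 391, 358, 347, 282, 286 and 301 CPM and ranged 1.39-fold.

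**Figure D5:**
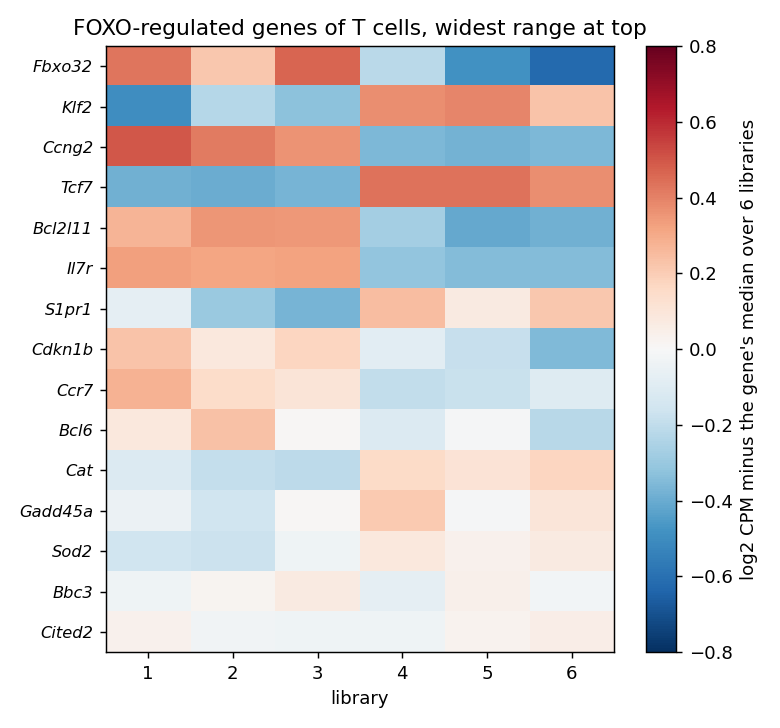
Log2 CPM of the 15 measured FOXO-regulated genes minus each gene's median over the 6 libraries, with the widest range at the top. Klf2, Tcf7 and S1pr1 are blue in libraries 1, 2 and 3, while Fbxo32, Ccng2, Bcl2l11 and Il7r are red there.

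Other genes of the pathway were taken from 8 lists, the FOXO-regulated one included, with 116 names, of which 114 were in the table and 109 were measured. Of these, 26 ranged 1.5-fold or more, or 23.9%, against 27.6% of all measured genes, and 8 reached 2-fold, or 7.34%, against 10.5%. Low genes carry much of that background, which was 13.5% at 1.5-fold for genes averaging 10 CPM or more. The lists were not matched to it by level, so they are not placed above or below it. The 8 genes included Fbxo32. The median range of the 109 genes was 1.254-fold. Pik3ap1, the adaptor BCAP that links receptors to PI3K, stood at 147, 151, 138, 71.3, 71.5 and 76.8 CPM and ranged 2.12-fold. Among the 94 measured genes outside the FOXO-regulated list, 6 more reached 2-fold, and each of those averaged below 5 CPM. Sgk3, a kinase related to Sgk1, ranged 4.11-fold, with a 95% interval of 3.02 to 4.31 CPM for library 5 against 0.561 to 1.20 CPM for library 2. Grb10, an adaptor that dampens growth factor signals, ranged 3.35-fold, with an interval of 2.03 to 3.06 CPM for library 4 against 0.444 to 1.07 CPM for library 1. Rragb, a Rag GTPase closely related to Rraga, ranged 2.85-fold, with an interval of 2.27 to 3.35 CPM for library 4 against 0.625 to 1.34 CPM for library 1. Reads of Rragb and Rraga may be split in ways the counts do not show.

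Low genes of the remaining lists also reached 2-fold. Prr5l, an interactor of mTOR complex 2, ranged 2.14-fold, highest at 5.23 CPM in library 2 and lowest at 2.42 CPM in library 6. Tbc1d7, a further TSC subunit, just reached 2-fold, highest at 7.17 CPM in library 6 and lowest at 3.56 CPM in library 2. Acacb, an acetyl-CoA carboxylase that AMPK phosphorylates, ranged 2.12-fold, highest at 2.39 CPM in library 5 and lowest at 1.09 CPM in library 1. The most abundant gene of each list, picked by level and not by range, ranged less than 1.5-fold. Rps6, the ribosomal protein that S6 kinase phosphorylates, had a median of 1937 FPKM and ranged 1.16-fold, though annotated pseudogenes may share its reads. Ldha, of the 10 transcripts known to be raised by mTOR complex 1 activity, ranged 1.21-fold, and 1 of the 10 ranged 1.5-fold or more, namely Hif1a at 1.51-fold. Each of the 10 averaged above 10 CPM, a level at which 13.5% of all genes ranged 1.5-fold or more. These 10 genes are too few to be set apart from that share. Slc7a5, a transporter that brings leucine into T cells, ranged 1.21-fold, Cab39, a partner of LKB1, 1.07-fold, Ppp2ca, a catalytic subunit of the phosphatase PP2A, 1.20-fold, Plekha2, a lipid-binding adaptor, 1.20-fold, and Tti1, an mTOR stabiliser, 1.31-fold.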

How the data were processed

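TRIzol extraction and VAHTS Universal V5 library preparation were used for RNA of 6 mouse CD4+ T cell libraries, per the labels' protocols. GRCm39 is the assembly, and fastp, HISAT2, HTSeq, DESeq2 and R 3.2.0 the tools, listed in the submitters' processing notes. Which annotation and strand setting applied is not given in the sources used here. Raw read counts per gene and a second table of FPKM values per gene were deposited by the authors. The deposited FPKM equal the counts over gene length and total, since the ratio of count to FPKM differed between libraries by a common factor within a relative 1.63e-06, so both hold the same reads.

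TMM scaling in edgeR 4.0.16 under R 4.3.3 gave factors between 0.958 and 1.04. Ranges used log2 CPM with a prior count of 2, which understates those of low genes, over genes averaging 1 CPM or more. Intervals at 95% are exact (Clopper-Pearson) and hold counting error alone. The floor of 3 counts is 0.0791 to 0.0966 CPM. Shares of gene pairs were carried to the per-length scale with lengths implied by the tables. Rankings per length depend on those lengths, and the intervals do not cover any error in them. Python 3.11.15, numpy 2.4.6, pandas 2.3.3, scipy 1.17.1 and matplotlib 3.10.9 were used. The calculation was tried on simulated counts that held counting error alone, so the trial does not cover further variation between libraries.

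All 41 pathway genes are accounted for. The other lists are given by counts, and 1 gene was left out of them and is not reported here. Values in every library are given for genes ranging 1.5-fold, the most abundant of each class, and both genes of pairs whose share moved beyond its intervals. Of other lists, the genes at 2-fold and the most abundant are named, and other genes named from lists, such as Klf2 and Hif1a, were chosen after their values were seen. Members and lists were chosen with earlier results of these data known. Alternatives were DESeq2 1.42.0 size factors, plain totals, FPKM with a pseudocount of 0.1, a prior of 0.5, a minimum of 5 CPM or none, each library left out, and mitochondrially encoded genes left out. Promoter windows on GRCm38.p6, another assembly than that of the counts, came from RefSeq.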

Additional observations from a re-analysis of the deposited data

How the results depend on the processing

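Plain total counts shifted libraries against each other by up to 0.124 log2 units relative to TMM, and DESeq2 size factors by up to 0.0295. With plain totals the number of pathway genes at 1.5-fold was 1, Inpp4b, in place of 3. The deposited FPKM divide by the same totals and gave the same gene, so they add no separate check. TMM factors were 0.958, 0.959 and 0.967 for libraries 1, 2 and 3, and 1.044, 1.044 and 1.033 for libraries 4, 5 and 6. Plain totals leave these factors out, which lowers libraries 1, 2 and 3 against the others. Without a minimum level, Deptor was added and the number at 2-fold was 1 in place of 0. Leaving out a library gave from 2 to 3 genes at 1.5-fold and 34 to 37 with separate intervals, with 0 at 2-fold throughout. Over all 14 settings the median range lay between 1.18-fold and 1.22-fold. The other counts stayed within 1.5 times their value. Of the 40 genes, 15 kept libraries 1, 2 and 3 all above or all below libraries 4, 5 and 6 with TMM, DESeq2 and total counts, and 12 had no such order with any of them. The other 13 had it with some, and included Eif4ebp1, Akt2, Stk11 and Pik3cg. No share over all genes was computed for this order, so the count of 15 is not read as a trait of the pathway. By a related measure with TMM, the widest gap between libraries described below, the pathway had 37.5% and all measured genes 34.8%. No paired analysis was possible because the labels give no groups. The shift of plain totals corresponds to 1.09-fold, so the smallest ranges are of its size, and Deptor is limited by its depth.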

Other observations

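The libraries fell apart in a way that the labels do not name. For each gene, the libraries were ordered by level and the widest gap between neighbours was found. For 11 of the 40 measured pathway genes libraries 1, 2 and 3 lay above that gap and libraries 4, 5 and 6 below it, and for 4 the reverse held, together 37.5%. Across all 11516 measured genes the shares were 18.7% and 16.1%, together 34.8%, so the pathway was near the background in how often this gap appeared. With plain total counts the pathway gave 8 and 6 genes, against 11.1% and 27.8% of all genes. The 11 genes were Pik3ca, Pik3cd, Pik3cg, Pik3r1, Pdpk1, Rictor, Ddit4, Foxo1, Foxo3, Foxo4 and Sgk1, and the 4 were Pik3r5, Inpp4b, Eif4ebp2 and Sesn1, whose values per library are given above except for Pdpk1. Pdpk1 stood at 243, 231, 229, 214, 208 and 207 CPM. This pattern was noticed in the data and says nothing of which libraries were treated.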
